A study of Mus musculus with 32 samples.

Results

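Kinetochores are the protein assemblies on centromeric chromatin that hold chromosomes to spindle microtubules, and the spindle checkpoint delays anaphase while kinetochores are unattached. Inner kinetochore proteins of the CENP network sit on the centromere through the cell cycle, whereas outer kinetochore, corona and checkpoint proteins act in mitosis. Transcripts of many of these genes are known to peak in G2 and mitosis, so that a culture's level of them moves with its share of cells in those phases. In bulk RNA, fewer cells in G2 or mitosis and less of a transcript per cell cannot be told apart. The set described here is 37 kinetochore and checkpoint genes, found by gene symbol, of 39017 genes in the count table. By role they are 13 inner kinetochore genes, 9 outer kinetochore genes, 7 corona and microtubule coupling genes, 4 checkpoint genes and 4 genes of the chromosomal passenger complex and shugoshin.

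RNA was sequenced from mouse embryonic fibroblasts (MEFs), connective tissue cells grown from embryos, of 4 lines. They were an ATM knock-out line with wtATM as its wild type, and an ATMIN knock-out line with wtATMIN as its own. The ATM kinase acts when DNA is broken, and ATMIN is a binding partner of it. Each line received 1 µM aphidicolin (APH), an inhibitor of replicative DNA polymerases that slows or stops S phase, or DMSO, its solvent, for 24 h or 4 h. That gives 16 groups of 2 samples. The labels do not give the alleles, and with 1 line per genotype the genotype and the line cannot be told apart. Nor do they state if both samples of a group came from separate cultures, so p-values measure only the spread between these samples, which may be technical.

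Total counts ran from 9321329 to 21020662 per library, and 21236 to 62077 of them fell in the 37 genes, all of which passed the filter on low counts. Fibroblast markers were abundant, with all 11 tested and a summed level of 8260 to 30300 CPM (counts scaled to a common library size). A further 6 lists held 3 to 5 markers each, for epithelial, blood, endothelial, muscle, neural and fat cells. In each list 2 markers stayed under 1 CPM in every library, among them Epcam, Ptprc, Pecam1, Myog, Sox10 and Adipoq. The remaining markers of each list reached 1 CPM in at least 1 library. Summed levels of those lists ran highest for neural genes, at 91.9 to 466 CPM, and for fat genes, at 0.36 to 99.7 CPM, and their part in the results was not tested. Atmin mRNA measured 3.77 to 6.77 CPM in ATMIN knock-out libraries and 20.4 to 32.9 CPM in wtATMIN libraries. Atm mRNA measured 17.8 to 45.5 CPM in libraries labelled ATM knock-out and 43.1 to 65.1 CPM in wtATM libraries. With APH at 24 h the Atm levels overlapped, at 42.2 and 45.5 CPM in libraries labelled ATM knock-out and 43.1 and 52.3 CPM in wtATM libraries (log2 fold change -0.12 ± 0.15 SE, adjusted p = 0.509, edgeR's quasi-likelihood test). An mRNA level does not check an allele that leaves the transcript in place, so ATM knock-out below means the line labelled so.

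Both ATM knock-out libraries with APH at 4 h stood apart from the rest. Replicate 1 held 83100 CPM of Gm42418, a gene that overlaps ribosomal RNA, against 13500 to 37700 CPM in the other 14 libraries at 4 h. Replicate 2 was the shallowest library. A set of 1628 genes for odour and pheromone receptors, with symbols starting in Olfr or Vmn, was also counted. At least 1 read fell on 455 of them in replicate 2, on 173 in replicate 1 and on 22 to 106 in the other 30 libraries. Over the 37 genes, replicate 2 was above replicate 1 by a median of 0.26 on the log2 scale. Calls that were lost or gained without either library are given with the value without it for some genes named and as counts for others. The part of the library content in the results was not tested.

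Per kilobase of the deposited gene length, the passenger complex gene Birc5 (survivin) had the highest median level over the 32 libraries, at 133 CPM per kb. It was followed by Cdc20, the activator of the anaphase-promoting complex, at 87.2, by Mad2l1 (MAD2), the checkpoint protein that binds CDC20, at 82.7, and by Zwint, a partner of KNL1, at 81.3 CPM per kb. This order depends on the length used, since per kilobase of all GENCODE M21 exons Cdc20 had 84.2, Birc5 37.2, Zwint 33.8 and Mad2l1 13.6 CPM per kb. The 4 subunits of the NDC80 complex, which binds microtubules, were close together per kilobase of the deposited length. They had 39.0 for Ndc80, 37.3 for Spc24, 34.8 for Nuf2 and 30.2 CPM per kb for Spc25. Per kilobase of all exons Spc24 was higher, at 19.6, than Ndc80 and Nuf2 at 13.3 each and Spc25 at 12.9 CPM per kb. Lowest by either length were the inner kinetochore genes Cenpl and Cenpo, with 4.74 and 5.15 CPM per kb of the deposited length. Ska2, a subunit of the SKA complex that couples kinetochores to microtubule ends, varied most, with its highest library 7.95 times its lowest. Bub3, which brings checkpoint kinases to the kinetochore, varied least, with a ratio of 1.66.

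After 24 h with APH, Dsn1, Ska2, Ndc80, Cenpt, Ska3 and Spc25 were called higher than with DMSO in all 4 lines. Of these genes, only Dsn1 and Ska2 kept the call in every line without any 1 library. Cdc20 was lower in 3 of the lines. Most of the set was called higher in both lines of the ATMIN pair. Calls required an adjusted p below 0.05 in edgeR's quasi-likelihood test, adjusted by Benjamini-Hochberg over 18484 genes. In the ATM knock-out line 8 of 37 genes (21.6%) were called higher with APH, where 15.7% of all genes were, and 3 (8.11%) lower, where 12.2% were. In wtATM 6 (16.2%) were called higher, beside 14.4% of all genes, and 3 lower, beside 14.3%. In the ATMIN knock-out line 25 (67.6%) were called higher, beside 14.3% of all genes, and 1 (2.70%) lower, beside 15.8%. In wtATMIN 20 (54.1%) were called higher, beside 13.6%, and 1 lower, beside 15.3%. The median log2 fold change of the 37 genes was 0.12, 0.08, 0.35 and 0.28 in these 4 lines, while that of all genes lay between 0.00 and 0.01. Leaving out each of a line's 4 libraries at 24 h in turn kept 6 of 8 higher calls in ATM knock-out cells, 3 of 6 in wtATM, 17 of 25 in the ATMIN knock-out line and 14 of 20 in wtATMIN.

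Among inner kinetochore genes, APH at 24 h raised 8 of 13 in the ATMIN knock-out line, 5 in wtATMIN and 1 in each line of the ATM pair. Cenph, whose protein helps to recruit the outer kinetochore, measured 69.2 and 64.0 CPM with APH and 37.1 and 38.9 CPM with DMSO in the ATMIN knock-out line (log2 0.81 ± 0.10, adjusted p = 6.62e-08). In wtATMIN it measured 55.5 and 54.8 CPM with APH and 36.2 and 36.1 CPM with DMSO (log2 0.61). In both lines the APH samples lay above the DMSO samples, whereas log2 values of 0.21 in the ATM knock-out line and 0.24 in wtATM did not pass. Cenpn, which reads the centromeric nucleosome, had log2 values of 0.15, -0.04, 0.72 and 0.58 in the ATM knock-out, wtATM, ATMIN knock-out and wtATMIN lines, the last 2 called. Cenpt, a direct anchor for the NDC80 complex, was called higher in all 4 lines and most in the ATM knock-out line, with 63.0 and 66.9 CPM with APH and 44.7 and 37.8 CPM with DMSO (log2 0.65 ± 0.09, adjusted p = 6.34e-07). Its call was lost without wtATM DMSO 24 h replicate 1 (0.32, adjusted p = 0.0575) and without ATMIN knock-out DMSO 24 h replicate 1 (0.29, adjusted p = 0.074). Cenpc1 (CENP-C), the base of the inner kinetochore, had log2 values of 0.14, 0.00, 0.35 and -0.02 in the 4 lines. Only the ATMIN knock-out value was called, and it was not without DMSO replicate 1 (0.29, adjusted p = 0.181) or APH replicate 1 (0.25, adjusted p = 0.236) of that line and time. Cenpk, Cenpl, Cenpm, Cenpo and Cenpw, of the same layer, were called in none of the 4 lines at 24 h.

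In the outer kinetochore, 5, 3, 8 and 7 of 9 genes were called higher at 24 h in the ATM knock-out, wtATM, ATMIN knock-out and wtATMIN lines. Dsn1, a subunit of the MIS12 complex that joins inner and outer kinetochore, measured 64.2 and 68.9 CPM with APH and 43.3 and 46.6 CPM with DMSO in the ATM knock-out line, and 40.5 and 42.4 CPM with APH and 34.0 and 30.4 CPM with DMSO in wtATM. It measured 67.5 and 69.0 CPM with APH and 46.1 and 42.4 CPM with DMSO in the ATMIN knock-out line, and 54.9 and 60.4 CPM with APH and 39.8 and 41.5 CPM with DMSO in wtATMIN. No APH sample reached down to a DMSO sample of its line. The log2 values were 0.57, 0.36, 0.62 and 0.50 (SE 0.08 each), and each call held without any 1 library of its line. Ndc80 rose by 0.45, 0.35, 0.52 and 0.41 on the log2 scale in the same lines, a call that in wtATM was lost without APH 24 h replicate 1 (0.27, adjusted p = 0.0641). Spc25, another subunit of that complex, measured 85.6 and 82.1 CPM with APH and 43.5 and 47.9 CPM with DMSO in the ATMIN knock-out line (log2 0.88 ± 0.08, adjusted p = 4.32e-10), and 71.8 and 66.9 CPM with APH and 45.6 and 44.9 CPM with DMSO in wtATM (log2 0.62). In wtATMIN it measured 93.3 and 93.0 CPM with APH and 78.9 and 79.7 CPM with DMSO, the highest DMSO level of the 4 lines. That call (log2 0.23) was lost without any 1 of the line's 4 libraries at 24 h (0.21 to 0.24, adjusted p = 0.0887 to 0.164). Casc5 (KNL1), the scaffold that docks the checkpoint kinase BUB1, measured 127.6 and 133.7 CPM with APH and 70.4 and 71.1 CPM with DMSO in the ATMIN knock-out line (log2 0.88 ± 0.16, adjusted p = 0.000275), and values of 0.23 in the ATM knock-out line and -0.09 in wtATM were not called. Spc24 went the other way in the ATM knock-out line (log2 -0.37), a call lost there without DMSO 24 h replicate 1 (-0.30, adjusted p = 0.0688) or APH 24 h replicate 1 (-0.27, adjusted p = 0.108).

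Of the corona and coupling genes, Ska2 was the other gene whose rise held in all 4 lines at 24 h without any 1 library. It measured 86.2 and 81.7 CPM with APH and 54.6 and 60.3 CPM with DMSO in the ATM knock-out line, and 75.4 and 61.5 CPM with APH and 49.9 and 48.9 CPM with DMSO in wtATM. The ATMIN knock-out line had 207.3 and 191.5 CPM with APH and 134.3 and 145.2 CPM with DMSO, and wtATMIN 107.0 and 107.2 CPM with APH and 82.2 and 82.9 CPM with DMSO. Log2 values were 0.55, 0.47, 0.51 and 0.38. Of its exon bases, 10.1% are shared with Gm11491 on the opposite strand, and the strand setting of the counting is not given. Zwilch belongs to the RZZ complex, which brings dynein to kinetochores. It measured 149.8 and 148.8 CPM with APH and 75.2 and 87.2 CPM with DMSO in the ATMIN knock-out line (log2 0.88 ± 0.08, adjusted p = 4.86e-11) and 138.8 and 132.3 CPM with APH and 78.2 and 89.4 CPM with DMSO in wtATMIN (log2 0.70). In the ATM knock-out line and in wtATM its log2 value was 0.16, not called. Cenpe, the kinetochore kinesin, was called in no line at this time. Cenpf, a corona protein that binds dynein regulators, had values of -0.25, -0.37, 0.14 and 0.37 in the 4 lines. Its call in wtATM was lost without DMSO 24 h replicate 1 (-0.34, adjusted p = 0.111), DMSO 24 h replicate 2 (-0.39, adjusted p = 0.0668) or APH 24 h replicate 2 (-0.30, adjusted p = 0.165). That in wtATMIN was lost without DMSO 24 h replicate 1 (0.30, adjusted p = 0.143), APH 24 h replicate 1 (0.33, adjusted p = 0.0963) or APH 24 h replicate 2 (0.38, adjusted p = 0.0507).

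Of the 4 checkpoint genes, 2, 2, 1 and 1 were called lower with APH at 24 h in the 4 lines, and 1 higher in the ATMIN knock-out line. Cdc20 measured 126.2 and 126.0 CPM with APH and 165.2 and 150.2 CPM with DMSO in the ATM knock-out line, 130.3 and 131.9 CPM with APH and 156.2 and 158.3 CPM with DMSO in wtATM, and 133.5 and 130.6 CPM with APH and 202.8 and 197.7 CPM with DMSO in the ATMIN knock-out line. All APH samples of these 3 lines lay below their DMSO samples, with log2 values of -0.32, -0.26 and -0.60, each called. In wtATMIN the samples overlapped, with 195.9 and 188.9 CPM with APH and 195.8 and 182.2 CPM with DMSO (log2 0.03 ± 0.07, adjusted p = 0.829). Mad1l1 (MAD1), which recruits MAD2 to kinetochores, fell by 0.60 in wtATM and by 0.41 in wtATMIN on the log2 scale and was not called in either knock-out line. Bub3 fell by 0.41 in the ATM knock-out line, with 117.9 and 125.1 CPM with APH and 155.3 and 167.6 CPM with DMSO. Mad2l1 was called higher in the ATMIN knock-out line (log2 0.32 ± 0.07, adjusted p = 0.000841), and its values of 0.05, 0.18 and 0.12 in the ATM knock-out, wtATM and wtATMIN lines were not called.

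The passenger complex corrects faulty attachments. Of the 4 genes of this complex and shugoshin, 3 were called higher in each line of the ATMIN pair. Incenp, the scaffold of the complex, measured 268.5 and 256.3 CPM with APH and 178.8 and 176.1 CPM with DMSO in the ATMIN knock-out line (log2 0.56 ± 0.07, adjusted p = 7.95e-08), and 257.6 and 255.5 CPM with APH and 201.0 and 199.1 CPM with DMSO in wtATMIN (log2 0.36). Birc5 rose there by 0.30 and 0.38, and Sgol1 (shugoshin), the protector of centromeric cohesion, by 0.48 and 0.47. None of these 3 genes was called in the ATM pair, where log2 values ran from -0.16 to 0.13. Cdca8 (borealin) was called in no line at 24 h.

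**Figure D1:**
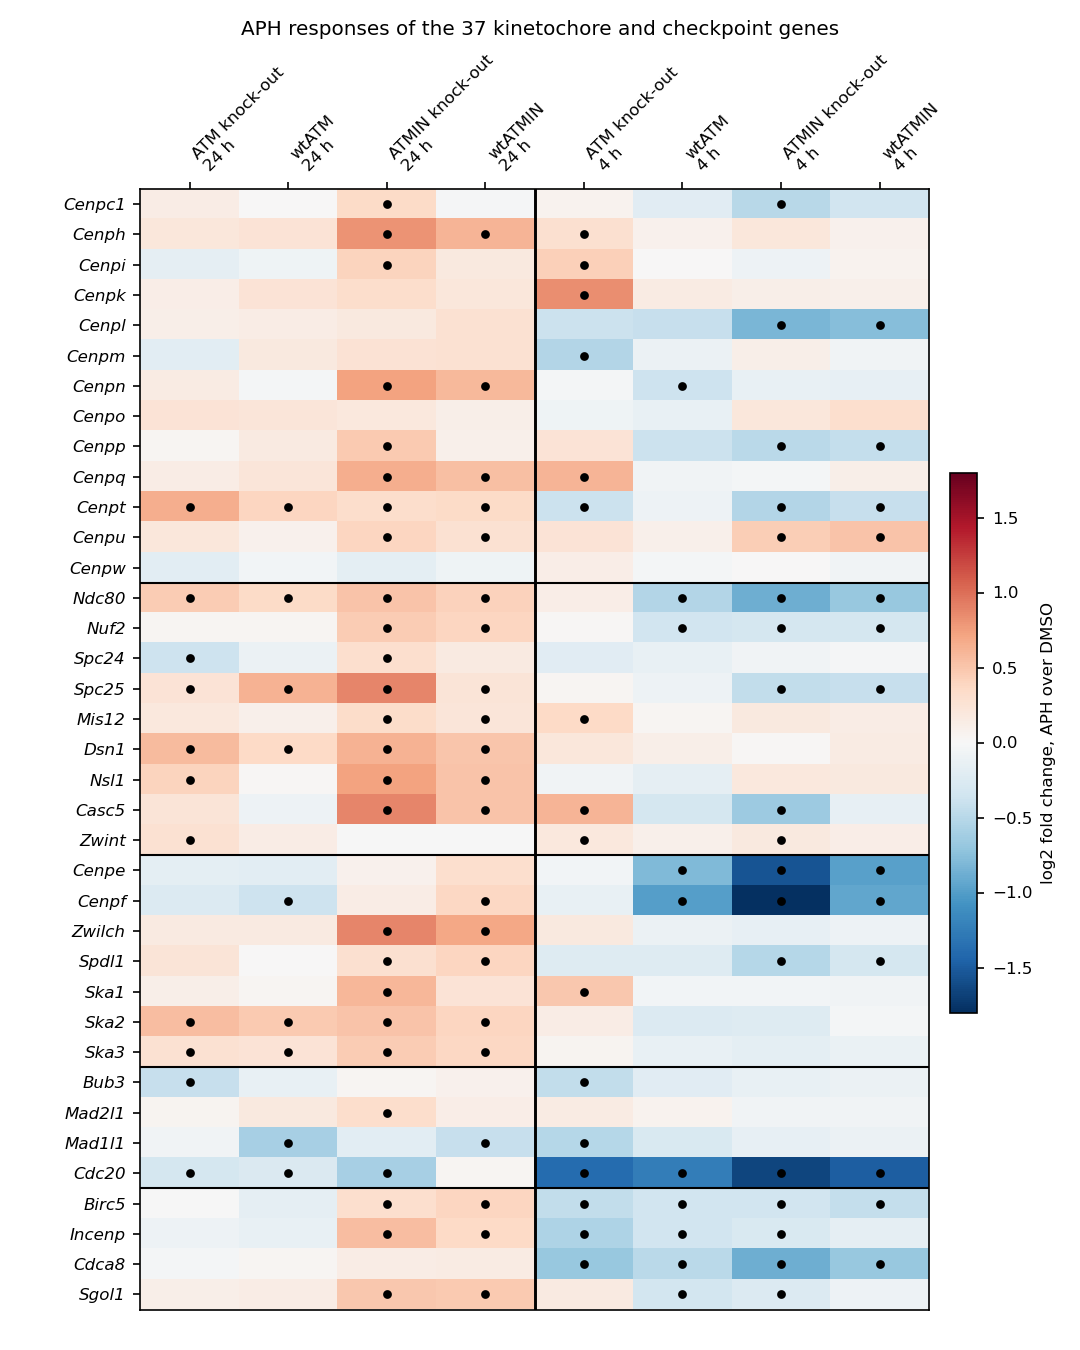
Log2 fold change of APH over DMSO for each of the 37 genes (rows, grouped by role from inner kinetochore at the top to passenger complex at the bottom) in each line at 24 h (left) and 4 h (right), with a dot where the adjusted p is under 0.05. Most of the left block is red in the ATMIN pair, and Cdc20 is blue in all 4 lines of the right block, from -1.24 to -1.65.

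After 4 h with APH, Cdc20, Cdca8 and Birc5 were lower than with DMSO in all 4 lines, and Cenpf, Cenpe and Ndc80 were lower in 3. Of the passenger complex and shugoshin, 3, 4, 4 and 2 of 4 genes were called lower in the 4 lines. In the ATM knock-out line 8 genes were called lower, beside 15.4% of all genes, and 8 higher, beside 14.0%. In wtATM 10 genes (27.0%) were called lower, beside 2.76% of all genes, and 0 higher, beside 2.82%, with 0 at an unadjusted p under 0.05 and 0 by DESeq2. Without wtATM DMSO 4 h replicate 1 the lower calls in wtATM numbered 6. In the ATMIN knock-out line 16 genes (43.2%) were called lower, beside 10.9%, and 2 higher, beside 9.48%. Of the higher ones, Zwint was not called without any 1 of the line's 4 libraries at 4 h, and Cenpu not without APH 4 h replicate 2 (0.30, adjusted p = 0.137). In wtATMIN 12 genes (32.4%) were called lower, beside 7.75%, and 1 higher, beside 7.25%. Median log2 values were 0.05, -0.16, -0.15 and -0.10, against -0.02 to 0.00 for all genes. Of the lower calls, 6, 5, 11 and 9 held without any 1 library of their line and time. Gm42418 measured 83100 and 23500 CPM with APH and 14700 and 14200 CPM with DMSO in ATM knock-out cells at 4 h, and 21900 and 26100 CPM with APH and 37700 and 15900 CPM with DMSO in wtATM. It measured 22300 and 32600 CPM with APH and 13500 and 13900 CPM with DMSO in the ATMIN knock-out line, and 33500 and 16100 CPM with APH and 13900 and 16000 CPM with DMSO in wtATMIN. The APH libraries thus lay above the DMSO libraries in every line but wtATM, where they overlapped, and the part of this in the results at 4 h was not tested.

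Cdc20 fell furthest of the set in the ATM knock-out, wtATM and wtATMIN lines. With APH at 4 h it measured 84.1 and 79.4 CPM in ATM knock-out samples, 77.0 and 83.6 in wtATM, 65.6 and 71.4 in the ATMIN knock-out line and 89.2 and 92.6 CPM in wtATMIN. With DMSO it measured 210.7 and 216.6, 182.4 and 197.3, 219.2 and 210.5, and 233.4 and 272.8 CPM in the same lines. All 8 APH samples thus lay below all 8 DMSO samples. The log2 fold changes were -1.38, -1.24, -1.65 and -1.48 (SE 0.07 each), with adjusted p-values of 5.15e-16, 6.69e-15, 5.77e-19 and 2.41e-17. Of its exon bases 2.8% are shared with Elovl1 on the opposite strand. Mad2l1, at -0.07 to 0.15, was called in no line. Bub3 and Mad1l1 were called lower in the ATM knock-out line, by 0.45 and 0.52 on the log2 scale, and not in the other 3.

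Cdca8 was the second gene whose fall at 4 h held in all 4 lines without any 1 library. It measured 53.8 and 58.7 CPM with APH and 86.7 and 93.6 CPM with DMSO in the ATM knock-out line, and 58.0 and 59.3 CPM with APH and 84.3 and 80.8 CPM with DMSO in wtATM. The ATMIN knock-out line had 64.4 and 68.0 CPM with APH and 123.4 and 120.8 CPM with DMSO, and wtATMIN 66.5 and 71.0 CPM with APH and 110.1 and 110.4 CPM with DMSO. In log2 terms it fell by 0.68, 0.49, 0.88 and 0.68. Birc5 fell by 0.44, 0.35, 0.35 and 0.43, though in wtATM not without DMSO 4 h replicate 1 (-0.28, adjusted p = 0.0654). Incenp was called lower in both knock-out lines and in wtATM, by 0.56, 0.28 and 0.34, the last not called without wtATM DMSO 4 h replicate 2 (-0.31, adjusted p = 0.0524), and its value in wtATMIN was -0.16. Sgol1 was called lower in wtATM and the ATMIN knock-out line (-0.33 and -0.25), in both only with all 4 libraries of the line and time, with log2 values of -0.39 to -0.27 in wtATM and -0.28 to -0.21 in the ATMIN knock-out line when 1 was left out.

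The corona genes Cenpf and Cenpe fell at 4 h in the ATMIN knock-out line, wtATMIN and wtATM and were not called in the ATM knock-out line. Cenpf measured 55.0 and 39.9 CPM with APH and 174.0 and 160.5 CPM with DMSO in the ATMIN knock-out line (log2 -1.81 ± 0.12, adjusted p = 6.03e-11), 55.3 and 38.6 CPM with APH and 96.1 and 92.3 CPM with DMSO in wtATM (log2 -0.99), and 78.6 and 77.4 CPM with APH and 157.7 and 140.3 CPM with DMSO in wtATMIN (log2 -0.93). In the ATM knock-out line it measured 114.1 and 132.8 CPM with APH and 141.3 and 128.4 CPM with DMSO, and the groups overlapped (log2 -0.13 ± 0.12, adjusted p = 0.447). Cenpe fell by 1.56 in the ATMIN knock-out line, 0.98 in wtATMIN and 0.79 in wtATM, with -0.05 in the ATM knock-out line. Without that line's APH 4 h replicate 1 or replicate 2, its values were 0.12 and -0.26 for Cenpe and -0.04 and -0.25 for Cenpf, none of them called. The SKA genes and Zwilch were not called lower in any line.

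In the outer kinetochore, Ndc80 fell at 4 h in the same 3 lines. It measured 57.7 and 47.8 CPM with APH and 95.0 and 99.4 CPM with DMSO in the ATMIN knock-out line (log2 -0.88 ± 0.09, adjusted p = 2.29e-09), 39.7 and 45.2 CPM with APH and 66.7 and 69.5 CPM with DMSO in wtATMIN (log2 -0.68), and 47.3 and 39.2 CPM with APH and 63.7 and 61.6 CPM with DMSO in wtATM (log2 -0.53). The ATM knock-out line had 80.8 and 100.8 CPM with APH and 83.5 and 83.0 CPM with DMSO (log2 0.12 ± 0.09, adjusted p = 0.351), and was called higher without its APH 4 h replicate 1 (0.26, adjusted p = 0.0269). Dsn1, Nsl1 and Spc24 were called in no line at 4 h. Among inner kinetochore genes, Cenpl and Cenpt fell in the ATMIN pair, Cenpl by 0.82 and 0.77 and Cenpt by 0.53 and 0.42 on the log2 scale in the ATMIN knock-out line and wtATMIN. Cenpt was also called lower in the ATM knock-out line (log2 -0.38 ± 0.10, adjusted p = 0.00337), a call lost without APH 4 h replicate 2 (-0.21, adjusted p = 0.186). Cenpc1 had values of 0.07, -0.20, -0.50 and -0.35 in the 4 lines, called in the ATMIN knock-out line but not without its DMSO 4 h replicate 2 (-0.44, adjusted p = 0.0547) or APH 4 h replicate 2 (-0.40, adjusted p = 0.0768). Cenpu moved against its layer in wtATMIN, with 36.8 and 38.6 CPM with APH and 25.7 and 26.7 CPM with DMSO (log2 0.52 ± 0.10, adjusted p = 0.00043), and 26.7% of its exon bases lie opposite Primpol.

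The 8 higher calls of the ATM knock-out line at 4 h rest on 1 of the libraries that stood apart. They were Cenph, Cenpi, Cenpk, Cenpq, Mis12, Casc5, Zwint and Ska1, with Cenpk at 0.83 ± 0.18 the largest. Without APH 4 h replicate 2, edgeR called 0 of the 37 genes higher in that line, with 3 at an unadjusted p under 0.05. Without replicate 1 there were 14 higher calls, and without DMSO 4 h replicate 2 there were 4. Cenpk measured 11.7 and 19.4 CPM in the APH samples and 7.77 and 9.32 CPM in the DMSO samples.

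**Figure D2:**
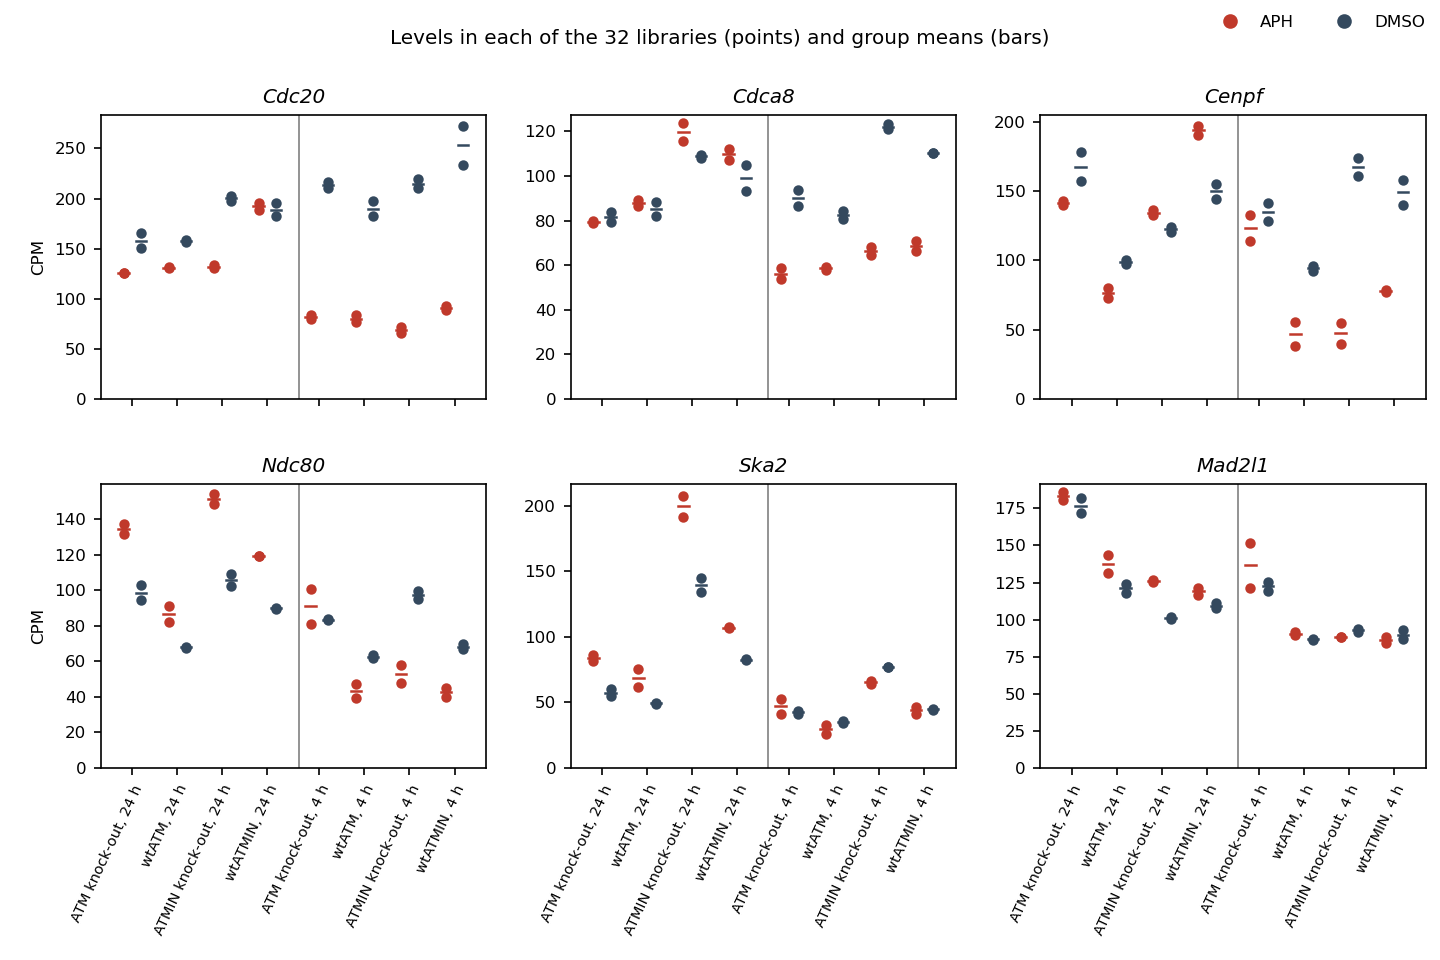
Level in CPM of 6 genes in each of the 32 libraries (points, APH red and DMSO dark blue) with the mean of each group of 2 (bars), by line, 24 h left of the line and 4 h right of it. Cdc20 and Cdca8 are lower with APH in every line at 4 h, Ndc80 and Ska2 are higher with APH in every line at 24 h, and Mad2l1 samples lie close together at 4 h outside the ATM knock-out line.

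Since part of the set fell together at 4 h, the promoters were read for elements known from genes of the late cell cycle. RefSeq promoter windows on GRCm38.p6, 250 bases before to 50 after the start, 300 bases in all, were given for 32 of the 37 genes, and Incenp, Nsl1, Ska1, Spc24 and Zwilch had none. The cell cycle homology region (CHR), TTTGAA or TTCGAA on either strand, is bound by the DREAM complex and B-MYB, and CCAAT, on either strand, by NF-Y. For each of the 32 genes 1 window was kept, the nearest to the GENCODE gene start where there were several, as for Cenpk with 3. The shares over the whole table count every window, which can be several for 1 gene. A CHR was in 14 of the 32 windows (43.8%) and in 6316 of 32851 windows of the table (19.2%). CCAAT was in 21 of 32 (65.6%) and in 12289 of 32851 (37.4%). By calls at 4 h, a CHR was in 4 of 8 windows of genes lower in 3 or 4 lines (50%), in 8 of 11 of genes lower in 1 or 2 lines (72.7%) and in 2 of 13 of genes lower in no line (15.4%). CCAAT stood at 4 of 8, 8 of 11 and 9 of 13. An E2F site, TTTCCCGC, TTTGGCGC, TTTCGCGC or TTTGCCGC on either strand, was in 3 of 32 windows (9.38%) and in 744 of 32851 (2.26%). By calls at 4 h it stood at 0 of 8, 2 of 11 and 1 of 13. These shares describe letters in a window and do not show binding.

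Cdc20 and Cdca8 were lower in 4 lines at 4 h, and Cenpf had the deepest fall. Ska2 was lower in none and higher in all 4 lines at 24 h. The windows of these 4 genes, picked by their calls, are below. Each runs 5′ to 3′ on the gene's own strand, with CHR and CCAAT matches (ATTGG where CCAAT is on the other strand) in capitals. The Cdc20 window is chr4:118437294-118437593 on the minus strand, Cdca8 chr4:124936868-124937167 minus, Cenpf chr1:189688037-189688336 minus and Ska2 chr11:87109011-87109310 plus.
Cdc20: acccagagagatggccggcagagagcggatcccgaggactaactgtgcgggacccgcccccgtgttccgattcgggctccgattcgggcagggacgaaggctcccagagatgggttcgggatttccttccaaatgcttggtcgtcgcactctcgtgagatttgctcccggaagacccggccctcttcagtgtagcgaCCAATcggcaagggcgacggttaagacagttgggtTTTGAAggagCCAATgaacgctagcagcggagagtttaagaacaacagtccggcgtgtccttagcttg
Cdca8: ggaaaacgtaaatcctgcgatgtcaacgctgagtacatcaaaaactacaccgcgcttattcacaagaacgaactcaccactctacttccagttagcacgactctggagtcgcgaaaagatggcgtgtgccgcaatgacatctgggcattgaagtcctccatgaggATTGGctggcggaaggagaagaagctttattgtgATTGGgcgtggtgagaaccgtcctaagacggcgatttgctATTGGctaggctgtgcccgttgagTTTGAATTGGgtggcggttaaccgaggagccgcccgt
Cenpf: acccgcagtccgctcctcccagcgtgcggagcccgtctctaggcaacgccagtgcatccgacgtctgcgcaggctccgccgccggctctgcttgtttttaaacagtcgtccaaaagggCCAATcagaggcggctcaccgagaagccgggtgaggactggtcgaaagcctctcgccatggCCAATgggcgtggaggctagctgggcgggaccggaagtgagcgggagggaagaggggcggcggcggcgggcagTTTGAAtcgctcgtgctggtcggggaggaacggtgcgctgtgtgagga
Ska2: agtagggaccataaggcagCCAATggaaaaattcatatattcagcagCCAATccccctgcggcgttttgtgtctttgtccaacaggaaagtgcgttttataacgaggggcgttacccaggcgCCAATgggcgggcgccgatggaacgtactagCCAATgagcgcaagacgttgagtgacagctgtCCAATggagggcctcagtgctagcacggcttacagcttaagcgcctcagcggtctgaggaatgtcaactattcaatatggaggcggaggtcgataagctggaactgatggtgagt

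Cdc20 holds TTTGAA starting 18 bases before the RefSeq start and CCAAT at 53 and 8 bases before it. Cdca8 holds TTTGAA at base 13 after the start, its last base shared with the ATTGG at base 18, and a further 3 ATTGG upstream, and this RefSeq start lies 2394 bases from that of the GENCODE gene model. Cenpf has TTTGAA at base 2 and CCAAT at 132 and 71 bases before the start. Ska2 has 5 CCAAT and no CHR. Birc5, lower in 4 lines, had neither a CHR nor a CCAAT in its window. Cenpe, Cenpt and Nuf2, lower in 3 lines, had no CHR, though the RefSeq start of Cenpt lies 1270 bases from that of its GENCODE gene model. Ska3 and Cenpw, lower in no line at 4 h, each had a CHR.

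**Figure D3:**
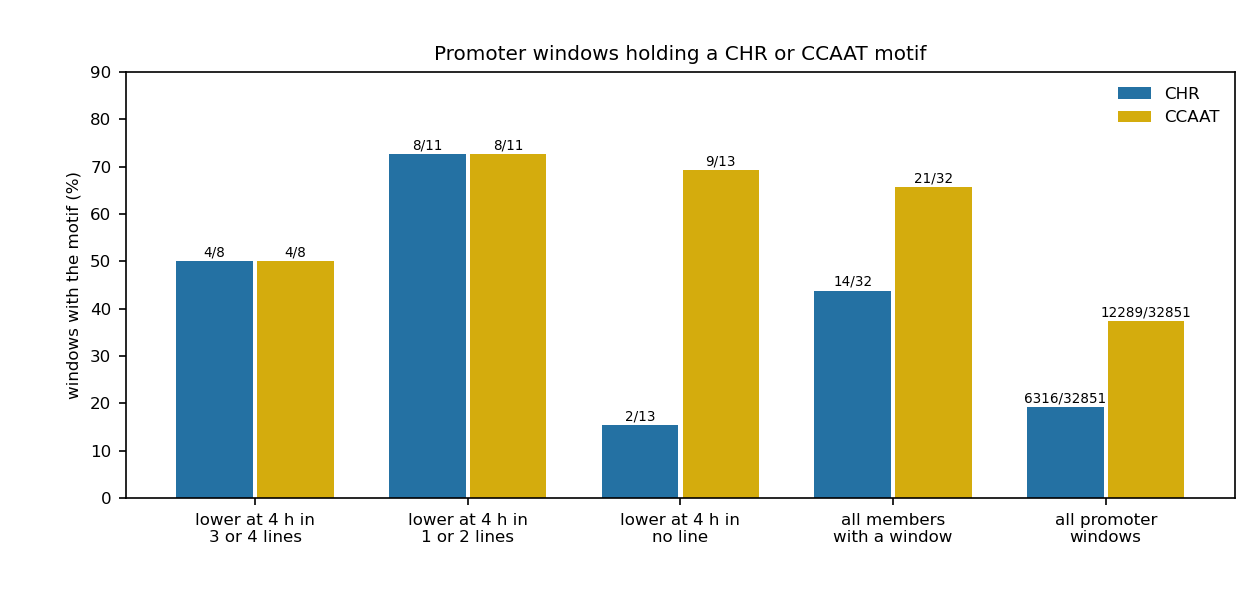
Share of RefSeq promoter windows, in percent, that hold a CHR (blue) or a CCAAT (yellow), for genes called lower with APH at 4 h in 3 or 4, 1 or 2 or no line, for all 32 genes with a window and for all 32851 windows, with counts above the bars. The CHR share is 15.4% among genes lower in no line and 50% and 72.7% in the other 2 sets, while the CCAAT share is at or over 50% in all 3.

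The difference between the responses at 24 h and 4 h was itself tested. The response was more positive at 24 h for 10 genes in the ATM knock-out line and less positive for 3, with 22% of all genes called in either direction. It was more positive for every gene called in the other lines, 10 in wtATM (15.1% of all genes called), 28 in the ATMIN knock-out line (21.1%) and 21 in wtATMIN (18.6%). The 3 less positive ones, Cenpi, Cenpk and Cenpq, were not called without ATM knock-out APH 4 h replicate 2, where their differences were -0.36, -0.33 and -0.20. Without wtATM APH 24 h replicate 1 the count in wtATM was 5. Cdc20 and Cdca8 were called in all 4 lines in each fit without 1 library. Cdc20 differed by 1.06, 0.98, 1.05 and 1.5 and Cdca8 by 0.64, 0.54, 1.02 and 0.83 on the log2 scale. In the ATMIN knock-out line the response of Cenpf was higher at 24 h by 1.95 ± 0.17 (adjusted p = 5.72e-09), that of Cenpe by 1.64 and that of Ndc80 by 1.39. In wtATMIN these differences were 1.30, 1.28 and 1.09, in wtATM that of Ndc80 was 0.88, and in the ATM knock-out line none of the 3 was called. Cenpt and Ska2 were called in all 4 lines too, with 1.03, 0.47, 0.84 and 0.77 for Cenpt and 0.42, 0.71, 0.74 and 0.40 for Ska2. The Cenpt call in wtATM was lost without APH 24 h replicate 1 (0.43), DMSO 24 h replicate 1 (0.40), APH 4 h replicate 2 (0.40) or DMSO 4 h replicate 2 (0.42), with adjusted p = 0.0695 to 0.101. The Ska2 call held without any 1 library in wtATM and the ATMIN knock-out line. In the ATM knock-out line it was lost without replicate 1 of any of the 4 groups (0.27 to 0.39), and in wtATMIN without any 1 library but APH 4 h replicate 2 (0.32 to 0.42).

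Whether a knock-out line responded to APH unlike its wild type was tested on the difference of the 2 responses, and few of the 37 genes passed. At 24 h the ATM pair differed in 1 gene, beside 3.92% of all genes called. This was Mad1l1, with log2 responses of -0.07 in the ATM knock-out line and -0.60 in wtATM (difference 0.53 ± 0.13, adjusted p = 0.0114). The call was lost without ATM knock-out APH 24 h replicate 2 (0.45), ATM knock-out DMSO 24 h replicate 2 (0.51), wtATM APH 24 h replicate 1 (0.53) or wtATM DMSO 24 h replicate 1 (0.50), with adjusted p = 0.0507 to 0.0958. At 24 h the ATMIN pair differed in 2 genes, beside 2.43% of all genes, and both calls held without any 1 library. Spc25 rose more in the ATMIN knock-out line (difference 0.64 ± 0.12, adjusted p = 0.000725), where its DMSO level was lower than in wtATMIN. Cdc20 fell in the ATMIN knock-out line and not in wtATMIN (difference -0.63 ± 0.10, adjusted p = 0.000107). Birc5, Mad2l1, Ndc80 and Cenpc1 did not pass in either pair at 24 h.

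At 4 h the ATM pair differed in 7 genes, all with a higher response in the ATM knock-out line, beside 11.4% of all genes called in either direction. Ndc80 (difference 0.64 ± 0.13, adjusted p = 0.0022) and Cenpf (0.86 ± 0.17, adjusted p = 0.00372) kept the call without any 1 library. Cenpq, Nuf2, Casc5, Cenpe and Sgol1, with differences of 0.67, 0.36, 0.92, 0.74 and 0.49, did not. All 5 lost it without ATM knock-out APH 4 h replicate 2, where their differences were 0.39, 0.23, 0.69, 0.52 and 0.32, and the number of genes called was then 2. Without ATM knock-out DMSO 4 h replicate 2 or wtATM APH 4 h replicate 2 it was also 2, without wtATM DMSO 4 h replicate 1 it was 3, and without ATM knock-out APH 4 h replicate 1 it was 20. With the compared groups fitted alone 0 genes passed by edgeR, with 10 at an unadjusted p under 0.05, and DESeq2 called 8. The ATMIN pair differed at 4 h in Cenpf alone, beside 0.671% of all genes called, with responses of -1.81 in the ATMIN knock-out line and -0.93 in wtATMIN (difference -0.88 ± 0.17, adjusted p = 0.0097). It was lost without ATMIN knock-out DMSO 4 h replicate 1 (-0.82, adjusted p = 0.065), wtATMIN APH 4 h replicate 1 (-0.87, adjusted p = 0.0536) or wtATMIN DMSO 4 h replicate 2 (-0.79, adjusted p = 0.0854). The Cdc20 differences at 4 h, -0.14 and -0.17 from the responses above, were not called in either pair.

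**Figure D4:**
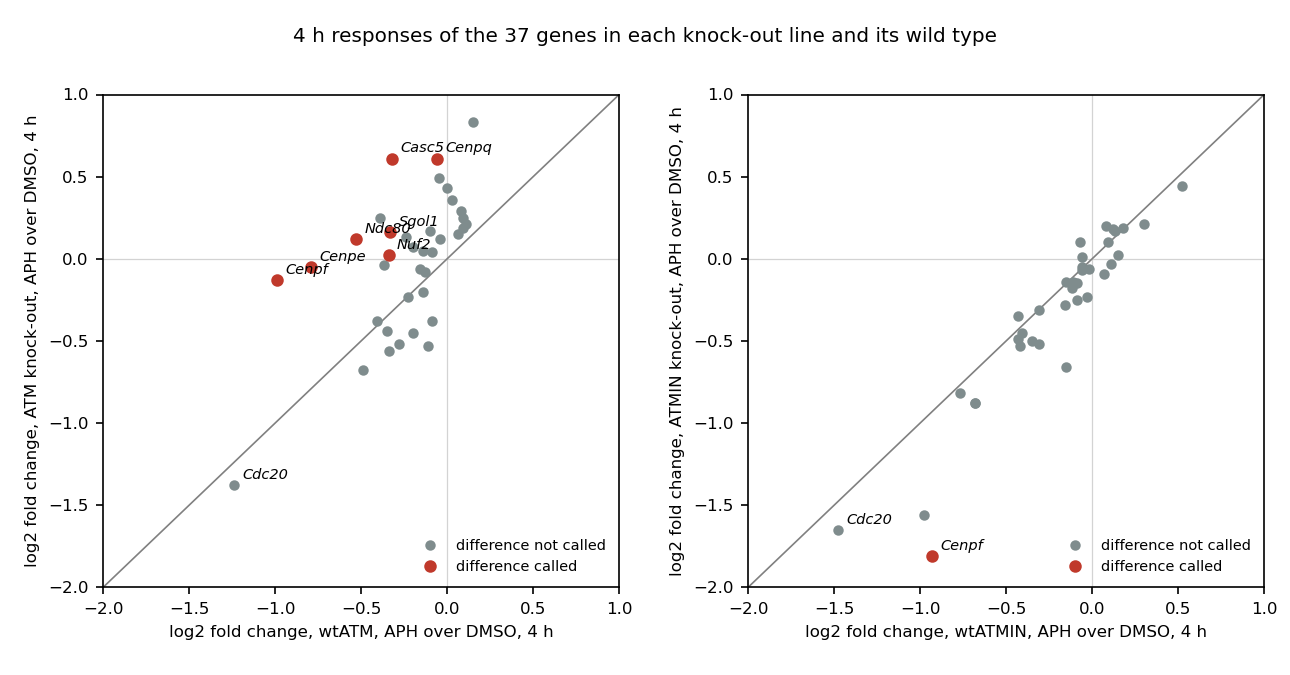
Log2 fold change of APH over DMSO at 4 h for the 37 genes (points) in each knock-out line (vertical) against its wild type (horizontal), red where the difference of the responses is called, with the diagonal of equal responses. In the ATM pair the 7 red genes lie above the diagonal, in the ATMIN pair Cenpf alone is red and lies below it, and Cdc20 is far down in both panels.

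The 2 wild-type lines also differed in their 24 h responses, with 1 gene higher and 9 lower in wtATM than in wtATMIN, beside 14.1% of all genes called in either direction. Cenpn (-0.62), Cenpf (-0.74), Zwilch (-0.53), Birc5 (-0.55) and Incenp (-0.50) held without any 1 library. Nuf2, Nsl1, Cdc20, Sgol1 and Spc25 did not. The count was 5 without wtATM DMSO 24 h replicate 2 and 6 without wtATMIN APH 24 h replicate 2 or wtATMIN DMSO 24 h replicate 1. At 4 h edgeR called 0 of the 37 genes, beside 2.44% of all genes, with 5 at an unadjusted p under 0.05 and 0 by DESeq2. Whether the 2 knock-out lines differed in their responses was not tested.

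Part of the set differed in level between each knock-out line and its wild type, with 1 line for each. In the ATM pair 18 genes were higher and 8 lower in the knock-out line with APH at 24 h, beside 31.5% and 29.9% of all genes. With DMSO at 24 h the counts were 16 and 6 (29.5% and 29.8%), with APH at 4 h 23 and 3 (30.3% and 28.6%) and with DMSO at 4 h 19 and 6 (27.3% and 27.9%). A group of 10 genes was higher in the ATM knock-out line in all 4 conditions in each fit without 1 library, and they were Cenph, Ndc80, Dsn1, Cenpe, Cenpf, Spdl1, Ska3, Mad2l1, Birc5 and Sgol1. Spdl1 (Spindly), the dynein adaptor of kinetochores, differed most among them at 24 h, with 99.3 and 92.9 CPM in ATM knock-out samples and 41.8 and 39.0 CPM in wtATM with APH (log2 1.25 ± 0.09, adjusted p = 4.82e-14). With DMSO at 24 h it had 80.2 and 83.8 CPM in ATM knock-out samples and 40.4 and 40.6 CPM in wtATM (log2 1.02), and the groups were far apart in both. Zwint was the 1 gene lower in all 4 conditions in each such fit, with log2 values of -1.09, -1.23, -0.99 and -1.08. With DMSO at 24 h it measured 124.7 and 125.8 CPM in ATM knock-out samples and 296.1 and 291.8 CPM in wtATM. Cdc20 differed little, from -0.06 to 0.17, and Cenpc1 from -0.28 to 0.18.

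In the ATMIN pair 12 genes were higher and 11 lower in the knock-out line with APH at 24 h, beside 23.8% and 26.8% of all genes. With DMSO at 24 h the counts were 6 and 12 (23.4% and 26.2%), with APH at 4 h 6 and 15 (19.8% and 22.3%) and with DMSO at 4 h 8 and 10 (21.9% and 23.0%). Apart from the lower calls with APH at 4 h, these counts were not far from the shares of all genes. With APH at 4 h, 13 genes were called without wtATMIN APH 4 h replicate 1 or replicate 2. With DMSO at 4 h, 10 were called without ATMIN knock-out DMSO 4 h replicate 1 and 11 without wtATMIN DMSO 4 h replicate 1. Ska2 was higher in all 4 conditions in each fit without 1 library, by 0.90, 0.76, 0.58 and 0.78. Birc5 and Cenpt were lower in all of them. Birc5 measured 113.6 and 112.6 CPM in the ATMIN knock-out line and 179.0 and 178.5 CPM in wtATMIN with APH at 24 h, and its log2 values were -0.66, -0.57, -0.44 and -0.51. Those of Cenpt were -0.66, -0.61, -1.03 and -0.91. Both genes ran the other way in the ATM pair, Birc5 at 0.67, 0.52, 0.52 and 0.60 and Cenpt at 0.67, 0.40, 0.39 and 0.68, with the Cenpt call at APH 4 h lost without ATM knock-out APH 4 h replicate 1 (0.15, adjusted p = 0.298). Mad2l1 was called in none of the 4 conditions.

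Cenpn lies next to the gene that the ATMIN line was made to lack. On GRCm38 it spans chr8:116921730-116941507 on the plus strand and ends 1885 bases before Atmin, chr8:116943393-116960445 on the same strand. Cenpn measured 29.0 and 29.2 CPM in the ATMIN knock-out line and 43.5 and 36.5 CPM in wtATMIN with DMSO at 24 h, and 27.3 and 24.5 CPM in the ATMIN knock-out line and 35.9 and 38 CPM in wtATMIN with DMSO at 4 h. It was called lower in all 4 conditions, with log2 values of -0.33, -0.47, -0.50 and -0.51. The call with APH at 24 h was lost without wtATMIN APH 24 h replicate 1 (-0.24, adjusted p = 0.0751) or ATMIN knock-out APH 24 h replicate 2 (-0.18, adjusted p = 0.168). In the ATM pair Cenpn was not called in any of the 4 conditions with all libraries, at -0.17 to 0.16. Birc5, Cenpl, Cenpt, Mis12 and Ska3 were also called lower in all 4 conditions of the ATMIN pair with all libraries. Whether the position next to Atmin has a part in the Cenpn level was not tested.

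**Figure D5:**
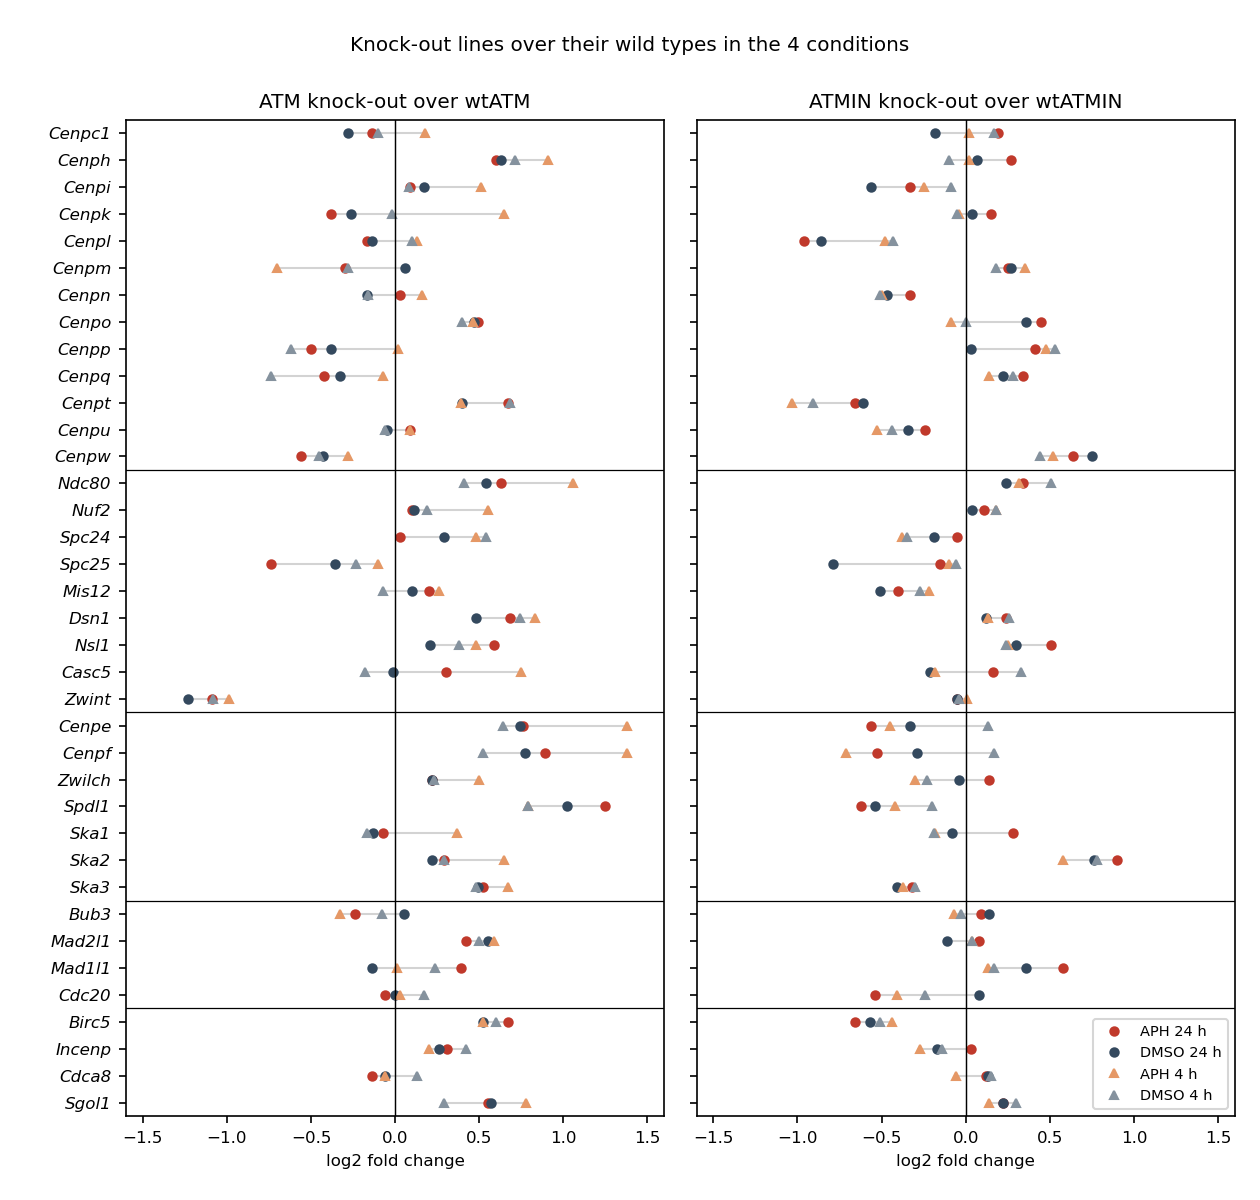
Log2 fold change of each knock-out line over its wild type for the 37 genes (rows, grouped by role) with APH or DMSO at 24 h (circles) and 4 h (triangles), 1 panel per pair. Spdl1, Cenpe and Cenpf lie right of zero and Zwint left of it in all 4 conditions of the ATM pair, and Birc5 and Cenpt lie on opposite sides in the 2 pairs.

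The wild-type lines differed from each other with DMSO too. At 24 h 4 genes were higher and 20 lower in wtATM than in wtATMIN, beside 30.2% and 31.5% of all genes, and at 4 h 4 and 21, beside 28.4% and 28.8%. In each fit without 1 library 11 genes were lower in wtATM at both times, among them Ska1 (-1.31 at 24 h and -1.38 at 4 h), Cenpt (-0.98 and -1.41) and Spc24 (-0.83 and -0.80). Zwint was higher in wtATM at both times, by 1.45 and 1.09. The wtATM line had 296.1 and 291.8 CPM of Zwint with DMSO at 24 h and wtATMIN 108.2 and 106.7 CPM, so among the 4 lines wtATM was the one that stood apart for this gene.

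Levels with DMSO also differed between the times. At 24 h, 22 genes were higher and 7 lower than at 4 h in the ATM knock-out line (24.6% and 24.1% of all genes), 17 and 4 in wtATM (23.1% and 23.3%), 11 and 7 in the ATMIN knock-out line (23.4% and 23.8%) and 18 and 7 in wtATMIN (29.1% and 26.3%). The inner kinetochore genes Cenpi, Cenpk, Cenpp, Cenpq and Cenpw, together with Ska2, Ska3 and Zwilch, were higher at 24 h in all 4 lines in each fit without 1 library. Cenpk, of the CENP-H, CENP-I and CENP-K subcomplex, measured 29.8 and 31.3 CPM at 24 h and 14.1 and 12.3 CPM at 4 h in the ATMIN knock-out line, and its log2 values in the 4 lines were 1.12, 1.36, 1.21 and 1.11. Mad1l1 was lower at 24 h in all 4 lines in each such fit, by 0.80, 0.42, 0.53 and 0.71. Cdc20 was -0.44, -0.27, -0.10 and -0.42, called in all but the ATMIN knock-out line, and Birc5 was called in no line. Gm42418 measured 254 to 5930 CPM in the 16 libraries at 24 h and 13500 CPM or more in those at 4 h, so time and library content cannot be told apart here.

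Other genes of the pathway, from lists by role, were read the same way. Of 16 kinetochore and checkpoint kinases and genes of their turnover, APH at 4 h lowered 12 in ATM knock-out cells, 10 in wtATM, 12 in the ATMIN knock-out line and 9 in wtATMIN, and raised 1, in the ATMIN knock-out line. Of all genes, 15.4%, 2.76%, 10.9% and 7.75% were called lower at 4 h in these lines and 14.0%, 2.82%, 9.48% and 7.25% higher. Plk1, the mitotic polo-like kinase, fell by 1.34, 1.2, 1.63 and 1.32, the checkpoint pseudokinase gene Bub1b (BUBR1) by 0.63, 1.11, 1.41 and 1.12, Ccnb1 (cyclin B1) by 0.86, 0.78, 1.24 and 0.92, and Kif2c, a kinesin that takes microtubules apart, by 0.73, 0.70, 1.01 and 0.85. At 24 h 2 were higher and 5 lower in ATM knock-out cells, 3 and 5 in wtATM, and 13 were higher in each line of the ATMIN pair, beside 15.7%, 14.4%, 14.3% and 13.6% of all genes called higher in the 4 lines at 24 h and 12.2% and 14.3% lower in the ATM pair. Of 21 genes of centromere chromatin and other kinetochore parts, 8, 3, 7 and 5 were called lower at 4 h in the 4 lines. Cenpa, the centromeric histone, fell by 0.77, 0.94, 1.18 and 1.09. Of 18 genes of the anaphase-promoting complex, 8, 4, 5 and 5 were called lower at 4 h. Its E2 enzyme Ube2c fell by 1.14, 0.52, 1.02 and 0.88. For this list and that of centromere chromatin, higher calls at 4 h and calls at 24 h are not given here. Their lower calls thus do not describe either list as a whole. Of 14 regulators of G2 and mitosis, 2, 1, 2 and 2 were called lower and 4, 1, 3 and 3 higher at 4 h, the lower counts being near the shares of all genes. In ATM knock-out cells the lower calls of the 4 lists numbered 12, 9, 7 and 3 without APH 4 h replicate 1, and 9, 5, 5 and 2 without replicate 2. The kinase inhibitor gene Cdkn1a (p21) rose at 24 h by 1.64, 1.88, 1.09 and 2.4.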

How the data were processed

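RNA was extracted with TRIzol and made into TruSeq v2 libraries, per the labels' protocols. The authors deposited 1 table of read counts per gene for all 32 libraries, with the gene length in a further column. Bowtie2 2.4.0, TopHat2 2.0.13, DESeq2 1.6.3 and mm10 are named in the submitters' processing notes. The counting tool, its strand setting and the annotation release are not given in the sources used here, so reads of overlapping genes on opposite strands cannot be told apart. The table's treatments AT and UT were read as APH and DMSO. A further 120 columns of normalised values per sample were not used, and 10 deposited comparison tables were used for gene symbols only; GENCODE M21 gave the symbols of genes outside them.

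Counts were fitted with edgeR 4.0.16 in R 4.3.3 (TMM scaling, filterByExpr, 1 coefficient per group over all 16 groups, quasi-likelihood test), with Benjamini-Hochberg adjustment within each of 32 comparisons at a threshold of 0.05. Values after ± are standard errors of log2 fold changes. CPM uses TMM-scaled library sizes, and depth limits precision by counting error only. Alternatives were RLE factors, library size only, no filter, DESeq2 1.42.0, the compared groups alone, a replicate block, each library left out in turn and, chosen after seeing the data, the fit without both ATM knock-out APH 4 h libraries. The members and lists were chosen with earlier results of these data known. Genes named are up to 2 per role group and direction with the smallest p in each comparison, those against their group, and Cdc20, Mad2l1, Birc5, Ndc80 and Cenpc1; further genes were chosen after their values were seen. Promoter windows came from RefSeq on GRCm38.p6.

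Same-numbered samples were checked for pairing, and the correlations of their deviations from group means ran from -0.0862 to 0.0696, so the numbers were not used as pairs.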

Additional observations from a re-analysis of the deposited data

Results flagged for a closer look

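Each value here is a difference of log2 responses to APH that passed edgeR's quasi-likelihood test at an adjusted p under 0.05, and what marked it is that the response differed between lines or times. No explanation was weighed.

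Between the ATM knock-out line and wtATM, 1 gene differed at 24 h, Mad1l1 (0.53). At 4 h 7 genes did, and they were Cenpq (0.67), Ndc80 (0.64), Nuf2 (0.36), Casc5 (0.92), Cenpe (0.74), Cenpf (0.86) and Sgol1 (0.49). Between the ATMIN knock-out line and wtATMIN, 2 genes differed at 24 h, Spc25 (0.64) and Cdc20 (-0.63), and 1 at 4 h, Cenpf (-0.88).

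Between wtATM and wtATMIN 10 genes differed at 24 h. Spc25 was higher in wtATM (0.38). Lower there were Cenpn (-0.62), Nuf2 (-0.34), Nsl1 (-0.49), Cenpf (-0.74), Zwilch (-0.53), Cdc20 (-0.29), Birc5 (-0.55), Incenp (-0.50) and Sgol1 (-0.34). Cenpn, Cenpf, Zwilch, Birc5 and Incenp kept the call without any 1 library. Spc25, Nuf2, Nsl1 and Sgol1 lost it in some such fits, and Cdc20 in each of 8.

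Between 24 h and 4 h the response differed for 13 genes in ATM knock-out cells, 10 in wtATM, 28 in the ATMIN knock-out line and 21 in wtATMIN. In these lines, in that order, the difference was 1.03, 0.47, 0.84 and 0.77 for Cenpt, 0.42, 0.71, 0.74 and 0.40 for Ska2, 1.06, 0.98, 1.05 and 1.5 for Cdc20, and 0.64, 0.54, 1.02 and 0.83 for Cdca8.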

How the results depend on the processing

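Of 40 counts of genes called, 0 moved by over 1.5 times with RLE factors or with a replicate block, 1 with DESeq2, 2 with library size only, 2 with no filter and 11 with the compared groups alone. The cause was not tested. With the compared groups alone, APH at 24 h had 13 higher and 5 lower calls in the ATM knock-out line and 3 lower in the ATMIN knock-out line. APH at 4 h then had 2 higher and 3 lower in ATM knock-out cells and 4 higher in the ATMIN knock-out line. The responses differed in 3 genes (24 h) and 0 (4 h) for the ATM pair, in 9 (24 h) and 2 (4 h) for the ATMIN pair, and between times in 4 for the ATM knock-out line. With library size only, the higher calls at 4 h were 5 in the ATM knock-out line and 1 in the ATMIN knock-out line. With no filter the higher calls of the ATMIN knock-out line at 4 h were 1, and the responses of the ATMIN pair at 4 h differed in 3 genes. With DESeq2 those of the ATM pair at 24 h differed in 3. Without both ATM knock-out APH 4 h libraries, an alternative chosen after seeing the data, the lower calls at 24 h in the ATMIN knock-out line were 2 and the ATM pair differed in 2 genes at 24 h.

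With each library left out in turn, the higher calls at 4 h ran from 0 to 14 in the ATM knock-out line and from 0 to 1 in the ATMIN knock-out line, and the lower calls in wtATM from 6 to 7. Calls between the ATMIN knock-out line and wtATMIN ran from 13 to 18 (APH 4 h) and 10 to 14 (DMSO 4 h). Differing responses ran from 0 to 1 (24 h) and 2 to 20 (4 h) in the ATM pair, 0 to 1 in the ATMIN pair at 4 h, 5 to 9 between wild types at 24 h, and 5 to 10 between times in wtATM. Of 2096 such values for single genes, 224 lost the call, 10 gained one and 1862 stayed on their side of the threshold, and no called value turned direction. The replicate block ended the call in 1 of 430 single-gene results, which include results that were not called.

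With library size only, the median log2 value of all genes was 0.11 for the response at 24 h minus 4 h in the ATM knock-out line. It was 0.12 and 0.16 for DMSO at 24 h against 4 h in the ATMIN knock-out line and wtATMIN. For wtATM against wtATMIN with DMSO at 24 h it was -0.12. The main fit had medians of 0.02, 0.00, 0.03 and 0.00 in the same order.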
